A study of Mus musculus with 9 samples.

Results

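Interferon signalling and the presentation of antigens on major histocompatibility complex class I molecules were followed in mouse skeletal muscle satellite cells, the resident stem cells that repair muscle fibres. The genes were 50 named members of these pathways, found by symbol among the 45706 genes of the deposited table. They comprise 3 RNA sensors, 4 interferon receptor chains, 7 transcription factors, 3 genes of the Isg15 system, 11 antiviral effectors, 4 membrane restriction factors, 7 interferon-inducible GTPases, 3 immunoproteasome subunits, 3 peptide-loading genes, and 4 class I chains together with their activator Nlrc5. RNA came from wild-type C57Bl6 mice aged 12 to 20 weeks and was sequenced at 3 stages, with 3 independent samples from different animals at each stage. Satellite cells were taken directly after isolation from muscle or after at least 3 days of growth in 20% fetal calf serum with 2.5 ng/ml FGF-2. Myotubes were taken after the same growth phase followed by 6 days in 2% horse serum. No interferon or infection is named for any group, and neither the number of animals behind a sample nor pooling of animals is given in the sources used here.

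Interferons are secreted proteins released after a cell senses viral nucleic acid or other danger. Type I interferons bind the receptor chains Ifnar1 and Ifnar2 and act mainly through a complex that contains Stat2 and Irf9, whereas type II interferon binds Ifngr1 and Ifngr2, and both programmes raise antiviral effectors and the class I pathway. In that pathway the proteasome cuts proteins into peptides, the Tap transporter carries them into the endoplasmic reticulum, and class I molecules bound to the light chain B2m show them to T cells.

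The values are read counts per gene that the authors scaled between libraries and rounded, called normalized read counts here, and the number 1, 2 or 3 names a library within its stage. Library totals were 20111379 to 26209153 in freshly isolated cells, 17751754 to 18151883 in proliferating cells and 19454082 to 20768064 in myotubes. The spacing of low values put 1 read at 0.747 to 2.179 units, so that differences of a few units are near the counting limit. Freshly isolated library 1 had the largest unit per read and so the fewest reads behind its values, with 22.2% of its total in the non-coding gene Gm26917. Proliferating library 1 held fewer transcripts of early myotubes than the other proliferating libraries. The stage labels were met by their markers. The summed level of 10 satellite cell genes was 123944 to 148733 in freshly isolated, 18447 to 22645 in proliferating and 15920 to 16685 in myotube libraries. Sdc4 was the largest part of the first, with 87979, 65072 and 59578. Of the 10 genes 8 were lower and 1 higher in proliferating than in freshly isolated cells. Itga7 ran against the sum, with 7510, 10311 and 9484 in proliferating against 7948, 5207 and 5888 in freshly isolated libraries. The 6 cell division genes summed to 344 to 1264, 60109 to 66455 and 16883 to 27424 at the same stages, and 7 myotube genes to 734 to 2193, 10283 to 57238 and 553996 to 664520. The myotube cultures therefore still held transcripts of dividing cells.

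Taken as a sum, the 50 genes gave 44174 to 47090 normalized read counts per freshly isolated library, 9696 to 10445 per proliferating library and 10471 to 11152 per myotube library. That was 0.18% to 0.22% of the total in freshly isolated cells, 0.0546% to 0.0575% in proliferating cells and 0.0537% to 0.0538% in myotubes. The freshly isolated libraries did not overlap with either cultured stage. The stage mean was highest in freshly isolated cells for 42 of the 50 genes, in proliferating cells for 4 and in myotubes for 4, and it was lowest in proliferating cells for 32. In bulk RNA, fewer expressing cells and less RNA per cell cannot be told apart.

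**Figure D1:**
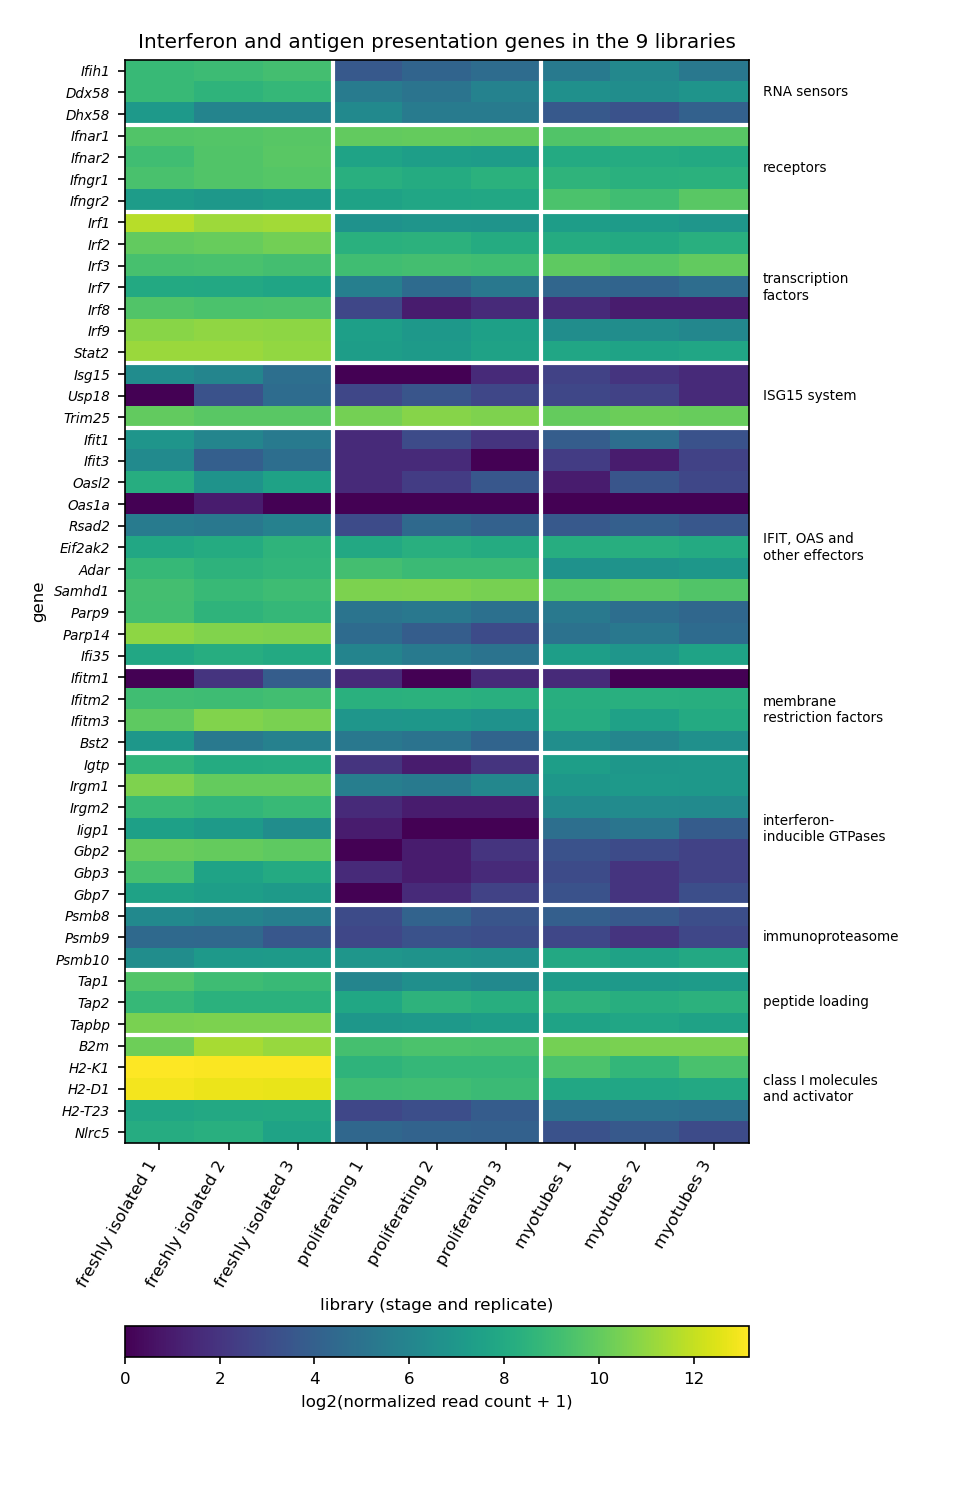
Level of each of the 50 genes (rows, grouped by role) in each of the 9 libraries (columns, by stage and replicate), as the log2 of the normalized read count plus 1. Most rows are brightest in the 3 freshly isolated columns, and the GTPase rows are darkest in the 3 proliferating columns, where their sum was 46 to 81 against 3234 to 4608 in freshly isolated cells.

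The first comparison asked how the pathway differed once satellite cells had left the muscle and divided in culture. Of the 50 genes, 47 reached 10 normalized read counts in at least 3 libraries and were tested, and Usp18, Oas1a and Ifitm1 were not. Of those tested, 40 passed this filter with libraries of more than a single stage. The other 7 passed only through freshly isolated cells, namely Irf8, Isg15, Ifit3, Gbp2, Gbp3, Gbp7 and Psmb9. Their calls as lower in culture follow in part from the filter. The same limit applies to Zbp1, H2-Q6, Gbp5 and any other gene outside the 50 with all cultured values below 10. In proliferating against freshly isolated cells 37 genes were lower, 5 higher and 5 not called (limma, with a p below 0.05 after Benjamini-Hochberg adjustment across the 17291 genes that passed the filter). Over all genes tested, 35.7% were lower and 37.6% higher, 73.3% together. The median log2 change was -3.40 over the 47 genes and 0.07 over all genes. With no filter, 36 of the 50 were lower and 4 higher. Without freshly isolated library 1 and proliferating library 1, 31 were lower and 4 higher of the 40 that then passed the filter.

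In myotubes against proliferating cells 22 genes were higher, 8 lower and 17 not called, whereas 28.6% of all genes were higher and 25.5% lower, 54.1% together. The median log2 change was 0.54 over the 47 genes and 0.04 over all genes. This split depended on the scaling. After rescaling to equal totals without Gm26917, which moved the median of all genes by -0.28, 17 of the genes were higher and 11 lower, and over all genes 3665 were higher and 5707 lower, where the deposited scaling gave 4951 and 4402. Without freshly isolated library 1 and proliferating library 1, 19 were higher and 7 lower of 40.

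In myotubes against freshly isolated cells 37 genes were lower, 4 higher and 6 not called, beside 37.3% lower and 40.2% higher over all genes, 77.6% together. The median log2 change was -2.44 over the 47 genes and 0.10 over all genes. Without the same 2 libraries, 31 were lower and 6 higher of 40. The 3 comparisons share libraries, so their values are not independent of each other.

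**Figure D2:**
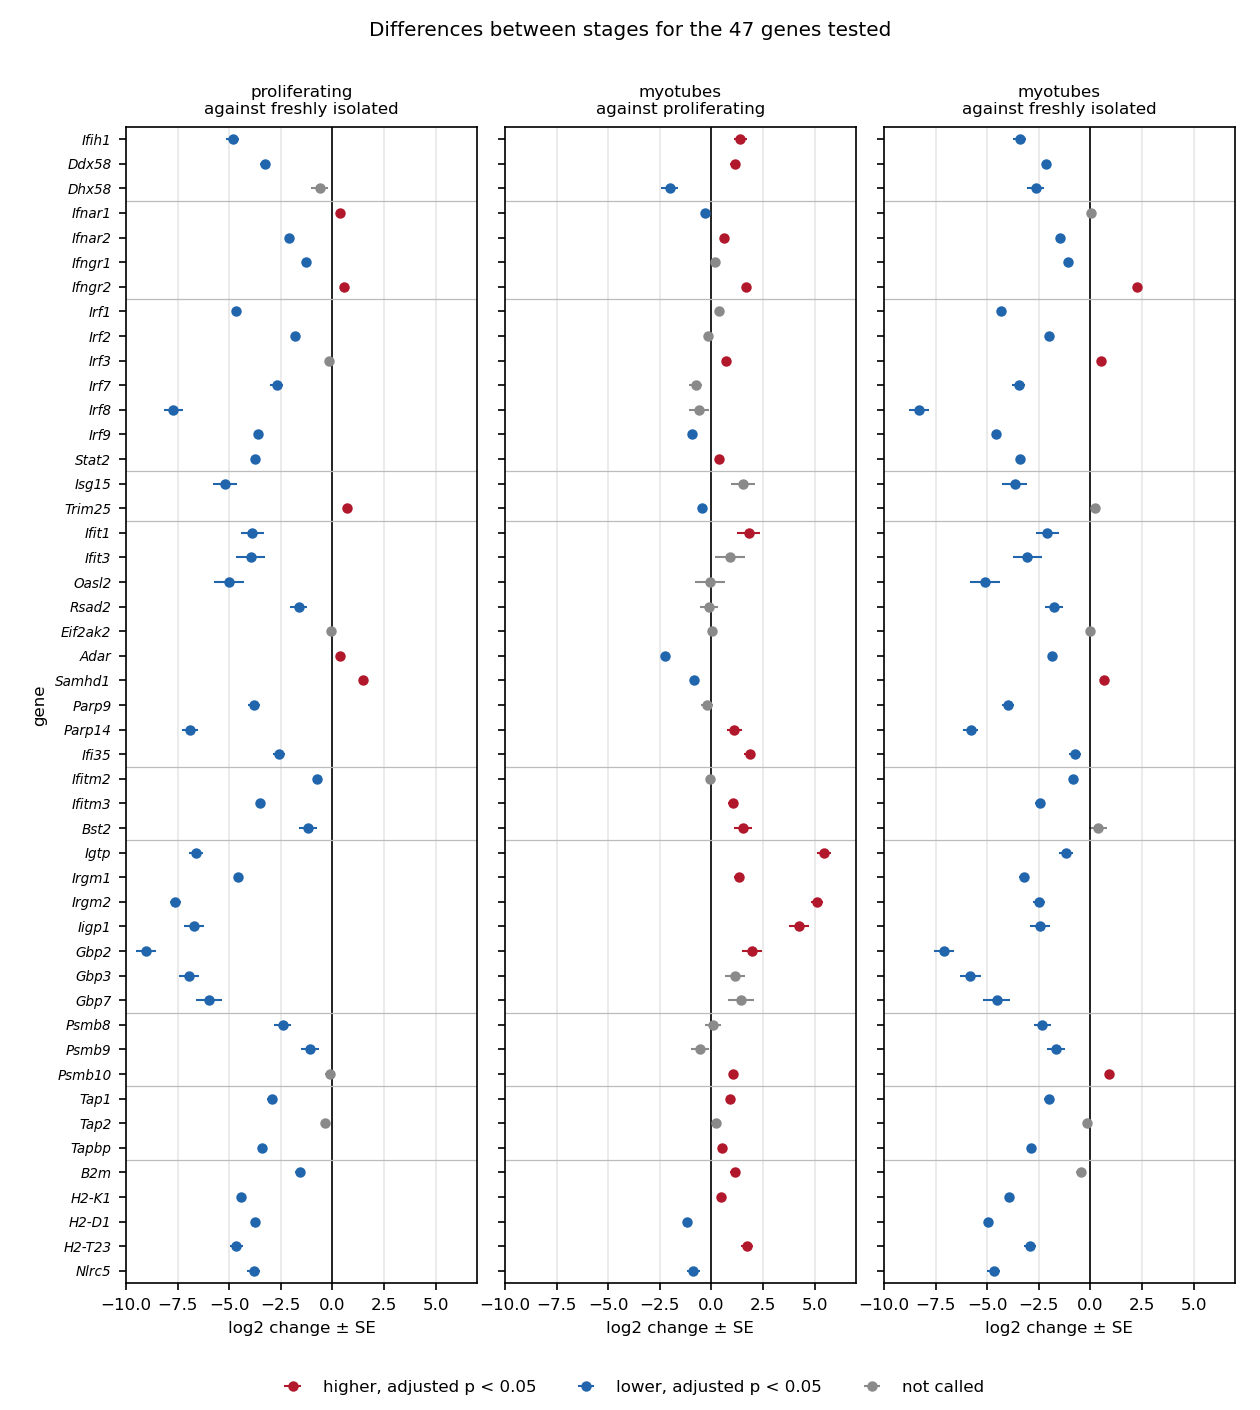
Log2 change ± SE (horizontal axis) of the 47 genes tested, for proliferating against freshly isolated cells, myotubes against proliferating cells and myotubes against freshly isolated cells. Red points were higher and blue points lower at an adjusted p below 0.05, and grey points were not called. Changes ran from -9.04 to 1.49 in the left panel, from -2.23 to 5.46 in the middle panel and from -8.30 to 2.25 in the right panel.

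Markers of other cell types found in muscle were read beside these counts. The 16 leukocyte markers summed to 880 to 902 in freshly isolated, 268 to 331 in proliferating and 291 to 308 in myotube libraries. Of those 16, 10 were below 10 in each freshly isolated library. The pan-leukocyte gene Ptprc was at 0, 0 and 14 there, and Adgre1, C1qa, Tyrobp and Nkg7 were at 0 in all 3. Most of the sum there came from Cd68, with 549, 629 and 621, and Cd79a, with 150, 163 and 165. Csf1r had 111, 47 and 45 and Cd14 had 68, 35 and 27 in freshly isolated libraries. Other markers of the list ran the opposite way. Laptm5 had 200, 158 and 179 in proliferating against 0, 6 and 1 in freshly isolated libraries. Itgam had 223, 213 and 229 in myotube against 2, 6 and 2 in freshly isolated libraries. The endothelial list summed to 249 to 336 in freshly isolated, 124 to 166 in proliferating and 140 to 166 in myotube libraries, and the fibroblast list to 3291 to 4682, 43 to 54 and 662 to 861 at these stages. Pecam1 and Cdh5, which define endothelium, had 59, 155 and 128 and 17, 36 and 50 in freshly isolated libraries, and the fibroblast gene Dpt, the largest part of its list there, had 2449, 3554 and 3249. In myotubes most of the fibroblast sum came from Col1a1, with 834, 631 and 658, while Dpt had 1, 0 and 2. Pdgfra, which defines fibro-adipogenic cells, had 19, 13 and 22 in proliferating libraries, against 4, 5 and 9 in freshly isolated libraries, and Ly6a had 0, 5 and 6 in freshly isolated libraries. Schwann cell markers summed to 213 to 303 in freshly isolated, 93 to 98 in proliferating and 59 to 99 in myotube libraries, and pericyte or smooth muscle markers to 2980 to 4231, 8655 to 20085 and 62656 to 63599. Of the last list, Rgs5, Pdgfrb, Cspg4 and Kcnj8 had at most 76, 376, 177 and 1 in myotube libraries. The myotube sum thus came from other genes of that list. A list of 10 genes that respond to tissue dissociation, such as Fos and Hspa1a, summed to 411874 to 484604 in freshly isolated, 7390 to 7867 in proliferating and 4730 to 4813 in myotube libraries. The part of other cells and of the isolation procedure in the differences described here was not tested.

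Transcripts of the interferons themselves were hardly present. None of 13 ligand genes reached the filter, and their sum was 12 to 19 in freshly isolated, 2 to 16 in proliferating and 3 to 10 in myotube libraries. Ifnb1 was at 0 in all 9 libraries, and Ifng, the type II interferon, was at 0 in the freshly isolated and proliferating libraries and at 1, 0 and 2 in myotubes.

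All 4 receptor chains were measured at every stage, and they moved in different directions. Ifnar1, the chain of the type I receptor that associates with Tyk2, had 760, 785 and 853 in freshly isolated, 1024, 1072 and 1022 in proliferating and 762, 866 and 855 in myotube libraries. Its partner Ifnar2 had 558, 783 and 902 in freshly isolated, 196, 168 and 154 in proliferating and 265, 273 and 254 in myotube libraries. Ifnar1 was thus slightly higher and Ifnar2 lower in each proliferating library than in any freshly isolated library. The log2 change in proliferating cells was 0.38 ± 0.09 (SE) for Ifnar1 (limma adjusted p = 0.00405) and -2.09 ± 0.18 for Ifnar2 (adjusted p = 2.68e-06). Myotubes had less Ifnar1 (log2 change -0.33 ± 0.09) and more Ifnar2 (0.62 ± 0.18) than proliferating cells. The Ifnar1 call was lost without myotube library 1 (adjusted p = 0.0649), and the Ifnar2 call without proliferating library 3 (0.0589) and after rescaling to equal totals (0.34, adjusted p = 0.213).

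The ligand-binding chain of the type II receptor, Ifngr1, had 671, 763 and 822 in freshly isolated, 313, 277 and 339 in proliferating and 380, 331 and 344 in myotube libraries. Ifngr2, the signalling chain, had 153, 131 and 156 in freshly isolated, 193, 219 and 233 in proliferating and 680, 563 and 885 in myotube libraries. The 2 chains thus ran opposite ways, with Ifngr1 highest in freshly isolated cells and Ifngr2 highest in myotubes, without overlap. In myotubes Ifngr1 fell by 1.09 ± 0.13 on the log2 scale against freshly isolated cells (limma adjusted p = 2.11e-05), and Ifngr2 was 4.74-fold higher (log2 change 2.25 ± 0.18, adjusted p = 1.17e-06). The smaller rise of Ifngr2 in proliferating cells (0.55 ± 0.18, adjusted p = 0.0181) was lost when freshly isolated library 2 (adjusted p = 0.0563) or proliferating library 2 (0.0505) or 3 (0.0642) was left out.

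Most other genes that act with the receptors also fell in culture. Of 13 further receptor and Jak-Stat genes tested, 10 were lower and none higher in proliferating than in freshly isolated cells. Jak1, the kinase used by both receptors, had 1947, 2248 and 2059 in proliferating against 8404, 9137 and 8372 in freshly isolated libraries. Socs3, a feedback inhibitor of cytokine receptors, had 58, 61 and 57 in proliferating against 7323, 7146 and 7341 in freshly isolated libraries, and its log2 change was -6.93 ± 0.11 (limma adjusted p = 9.33e-11). In myotubes against freshly isolated cells 10 of these genes were lower and 1 higher, and in myotubes against proliferating cells 3 were lower and 3 higher. The last counts are 23.1% each, near the 25.5% lower and 28.6% higher of all genes. Against freshly isolated cells the shares lower and higher were 76.9% and 0% in proliferating cells and 76.9% and 7.69% in myotubes. All genes gave 35.7% and 37.6% in the first of these and 37.3% and 40.2% in the second. Socs1, another feedback inhibitor, had 59, 56 and 43 in myotubes against 160, 156 and 165 in proliferating libraries.

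Of the 3 cytoplasmic sensors of viral RNA, Ifih1 and Ddx58 were lowest in proliferating cells and Dhx58 in myotubes. Ifih1, which binds long duplex RNA, had 462, 517 and 597 in freshly isolated, 12, 18 and 24 in proliferating and 41, 69 and 38 in myotube libraries. Ddx58, which recognises RNA ends of viral origin, had 468, 383 and 428 in freshly isolated, 43, 33 and 57 in proliferating and 95, 86 and 110 in myotube libraries. Both genes thus had 3 separate levels, lowest in proliferating cells and intermediate in myotubes. In proliferating cells Ifih1 was 28.5-fold lower than in freshly isolated cells (log2 change -4.83 ± 0.32, limma adjusted p = 3.68e-07) and 2.65-fold higher in myotubes than in proliferating cells (adjusted p = 0.00372). Ddx58 had log2 changes of -3.27 ± 0.23 and 1.14 ± 0.23 in the same comparisons. Dhx58, which modulates the other sensors, had 137, 61 and 61 in freshly isolated, 74, 43 and 44 in proliferating and 12, 9 and 16 in myotube libraries. Its proliferating and freshly isolated libraries overlapped (adjusted p = 0.2), and the myotube libraries lay below both (log2 change -2.02 ± 0.41 against proliferating cells, adjusted p = 0.00193).

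Further genes of nucleic acid sensing moved in both directions. Of 18 tested, 10 were lower and 6 higher in proliferating than in freshly isolated cells, 9 lower and 6 higher in myotubes than in freshly isolated cells, and 3 lower and 5 higher in myotubes than in proliferating cells. The shares lower and higher were 55.6% and 33.3%, 50% and 33.3%, and 16.7% and 27.8% of those tested, in that order. For all genes they were 35.7% and 37.6%, 37.3% and 40.2%, and 25.5% and 28.6%. Zbp1, a sensor of unusual nucleic acid helices, had 2, 1 and 1 in proliferating against 375, 545 and 627 in freshly isolated libraries. Myd88, the adaptor of Toll-like receptors, had 107, 129 and 128 in proliferating against 1325, 1576 and 1385 in freshly isolated libraries, and the kinase Ikbke had 24, 22 and 19 against 107, 131 and 196. All 3 fell without overlap between libraries. Mb21d1, the cytoplasmic DNA sensor that makes cyclic GMP-AMP, had 50, 78 and 42 in myotubes against 173, 194 and 203 in proliferating libraries (log2 change -1.77 ± 0.31, limma adjusted p = 8.44e-04). Tank, an adaptor of the kinase Tbk1, was higher in myotubes than in proliferating cells (1.01 ± 0.18), as was Tmem173, which receives the cyclic GMP-AMP signal (0.54 ± 0.15).

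Among the 7 transcription factors 6 fell in proliferating cells (85.7%, beside 35.7% of all genes). Stat2 had 2351, 2365 and 2079 in freshly isolated, 159, 144 and 194 in proliferating and 221, 200 and 218 in myotube libraries. Irf9, its DNA-binding partner, had 1791, 2014 and 1939 in freshly isolated, 171, 128 and 179 in proliferating and 88, 87 and 68 in myotube libraries. For both genes the cultured libraries lay far below every freshly isolated library. Stat2 was 13.7-fold lower (log2 change -3.77 ± 0.13, limma adjusted p = 5.99e-09) and Irf9 12.1-fold lower (-3.59 ± 0.17, adjusted p = 3.65e-08) in proliferating than in freshly isolated cells. In myotubes Irf9 fell further, by 0.96 ± 0.17 on the log2 scale against proliferating cells (adjusted p = 7.55e-04). The small rise of Stat2 there (0.37 ± 0.13, adjusted p = 0.0383) was not called after rescaling to equal totals (0.09, adjusted p = 0.608), nor without proliferating library 1 or 2 or myotube library 1 or 3, with adjusted p of 0.0923 to 0.134.

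Irf1, an inducible activator of antiviral and class I genes, had 3495, 2440 and 2595 in freshly isolated, 103, 114 and 111 in proliferating and 159, 149 and 118 in myotube libraries. Irf2, which competes with Irf1 for the same sites, had 1015, 1110 and 1293 in freshly isolated, 331, 357 and 273 in proliferating and 274, 256 and 313 in myotube libraries. The drop in culture was thus larger for Irf1 (log2 change -4.67 ± 0.17 in proliferating cells) than for Irf2 (-1.83 ± 0.15), a difference between the genes that was not itself tested. Irf8, a factor best known from myeloid and B cells, had 763, 692 and 714 in freshly isolated, 6, 1 and 2 in proliferating and 2, 1 and 1 in myotube libraries. Its cultured libraries were near the counting limit, and the log2 change of -7.70 ± 0.47 (adjusted p = 2.2e-07) became -6.08 when 8 instead of 1 was added before the logarithm. Irf8 passed the filter only through freshly isolated cells, so this call follows in part from the filter. Irf7, which amplifies type I interferon, had 251, 241 and 214 in freshly isolated, 51, 23 and 37 in proliferating and 19, 18 and 25 in myotube libraries.

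Irf3, the factor that acts right after sensing, was the exception. It was not called in proliferating cells (log2 change -0.16 ± 0.11, limma adjusted p = 0.212) and was higher in myotubes than in proliferating cells (0.70 ± 0.11) and than in freshly isolated cells (0.54 ± 0.11, adjusted p = 9.1e-04). Its stage means were 631, 566 and 922 in freshly isolated, proliferating and myotube cells.

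**Figure D3:**
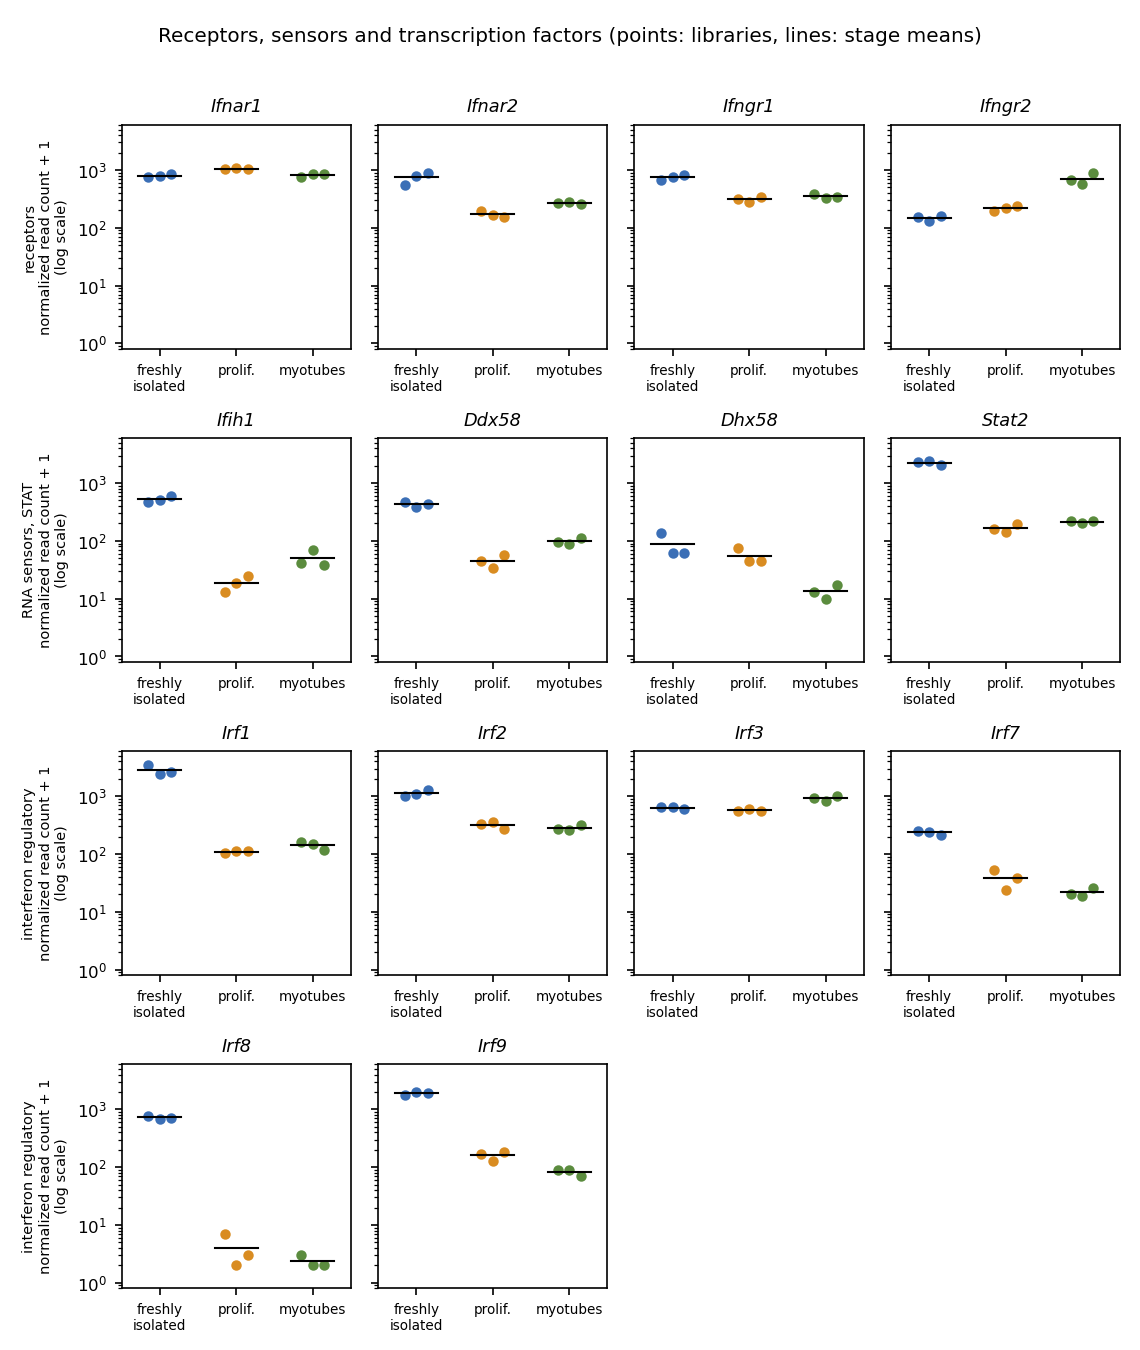
Normalized read counts plus 1 (log scale) of receptor chains, RNA sensors, Stat2 and interferon regulatory factors in freshly isolated, proliferating and myotube libraries; points are libraries and lines are stage means. Irf8 is at 6 or less in all cultured libraries and at 692 to 763 in freshly isolated libraries, while Ifnar1 and Irf3 stay between 554 and 1072 in all 9.

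In the Isg15 system, which attaches a ubiquitin-like protein to targets, the modifier fell and a ligase rose. Isg15 itself had 83, 62 and 27 in freshly isolated, 0, 0 and 2 in proliferating and 5, 3 and 2 in myotube libraries. Trim25, a ubiquitin ligase that also activates the Ddx58 protein, had 1041, 896 and 902 in freshly isolated, 1354, 1747 and 1565 in proliferating and 1067, 1192 and 1097 in myotube libraries. Trim25 was highest in proliferating cells without overlap (log2 change 0.71 ± 0.11 against freshly isolated cells, limma adjusted p = 2.42e-04), while Isg15 was highest in freshly isolated cells (-5.20 ± 0.60, adjusted p = 2.2e-05). Usp18, which removes Isg15 from proteins and dampens the type I receptor, did not reach the filter and had 0, 9 and 24 in freshly isolated, 6, 10 and 6 in proliferating and 6, 5 and 2 in myotube libraries. The values of Isg15 in culture were near the counting limit. Isg15 passed the filter only through freshly isolated cells, so its call follows in part from the filter.

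Antiviral effectors were mostly lower in culture. Of the 10 tested, 7 were lower and 2 higher in proliferating than in freshly isolated cells, 2 lower and 3 higher in myotubes than in proliferating cells, and 8 lower and 1 higher in myotubes than in freshly isolated cells. In myotubes against proliferating cells this is 20% and 30%, near the 25.5% and 28.6% of all genes. Against freshly isolated cells it is 70% and 20% in proliferating cells and 80% and 10% in myotubes. All genes gave 35.7% and 37.6% in the first of these and 37.3% and 40.2% in the second. Parp14, an ADP-ribosyltransferase, had 1967, 1610 and 1562 in freshly isolated, 23, 14 and 7 in proliferating and 30, 38 and 23 in myotube libraries. Parp9, its relative without known transferase activity alone, had 571, 376 and 435 in freshly isolated, 32, 37 and 28 in proliferating and 39, 26 and 20 in myotube libraries. Both neighbours on chromosome 16, Parp14 at 35832874 to 35871544 and Parp9 at 35938470 to 35972605 (GRCm38), fell in proliferating cells, with log2 changes of -6.90 ± 0.37 (limma adjusted p = 9.34e-08) and -3.78 ± 0.29 (adjusted p = 1.17e-06).

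Ifi35, an interferon-induced leucine zipper protein, had 240, 296 and 253 in freshly isolated, 61, 41 and 31 in proliferating and 164, 120 and 197 in myotube libraries. In proliferating cells it was lower than in freshly isolated cells (log2 change -2.59 ± 0.28) and higher in myotubes than in proliferating cells (1.86 ± 0.28, limma adjusted p = 2.75e-04). Oasl2, of the oligoadenylate synthetase family, had 298, 107 and 190 in freshly isolated, 2, 4 and 11 in proliferating and 1, 10 and 6 in myotube libraries. The low-abundance effectors Ifit1 and Ifit3, which bind foreign RNA, and Rsad2, which makes a chain-terminating nucleotide, had stage means of at most 16.3 in either cultured stage, against 39.7 to 72.7 in freshly isolated cells, and all 3 were lower in both cultured stages. The synthetase Oas1a was at 0 in 8 of 9 libraries and at 1 in freshly isolated library 2.

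Editing and nucleotide-control enzymes behaved differently. Adar, which converts adenosine to inosine in duplex RNA, had 451, 368 and 403 in freshly isolated, 590, 497 and 493 in proliferating and 103, 107 and 125 in myotube libraries. It was 4.68-fold lower in myotubes than in proliferating cells (log2 change -2.23 ± 0.14, limma adjusted p = 1.85e-06), and its rise in proliferating cells (0.37 ± 0.14, adjusted p = 0.0402) was lost when freshly isolated library 2 or 3 or any proliferating library was left out (adjusted p of 0.0595 to 0.142). Samhd1, which hydrolyses deoxynucleotides and restricts retroviruses, had 597, 468 and 536 in freshly isolated, 1505, 1585 and 1405 in proliferating and 823, 905 and 771 in myotube libraries. The 3 stages of Samhd1 did not overlap, and it was highest in proliferating cells (log2 change 1.49 ± 0.11 against freshly isolated cells, adjusted p = 1.11e-06). Eif2ak2, the kinase that stops translation on binding duplex RNA, was not called in any comparison, and its stage means were 296, 282 and 286 in freshly isolated, proliferating and myotube cells.

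Of the membrane restriction factors, Ifitm3, which blocks virus entry from endosomes, had 959, 1607 and 1451 in freshly isolated, 119, 126 and 104 in proliferating and 286, 184 and 264 in myotube libraries. Ifitm2 had 556, 529 and 578 in freshly isolated, 321, 344 and 314 in proliferating and 303, 318 and 304 in myotube libraries. Ifitm3 thus fell more than Ifitm2 in proliferating cells (log2 changes -3.48 ± 0.22 and -0.76 ± 0.11), and it was partly higher again in myotubes (1.05 ± 0.22, limma adjusted p = 0.00268). Ifitm2 shares 40.9% of its exon bases with the gene model Gm45717 on the same strand, so its count is uncertain. Bst2, which tethers budding virions, had 124, 39 and 54 in freshly isolated, 38, 31 and 18 in proliferating and 91, 65 and 95 in myotube libraries. Its decrease in proliferating cells (-1.18 ± 0.44, adjusted p = 0.034) was -0.71 and not called without freshly isolated library 1 (adjusted p = 0.0797), and it was not called without proliferating library 2 (0.058) or 3 (0.126). Ifitm1 did not reach the filter and had 0, 3 and 14 in freshly isolated, 2, 0 and 2 in proliferating and 2, 0 and 0 in myotube libraries.

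A wider list of 37 interferon-stimulated genes, of which 25 were tested, had 22 lower and 3 higher in proliferating than in freshly isolated cells. In myotubes against freshly isolated cells 20 were lower and 1 higher, and in myotubes against proliferating cells 9 were lower and 4 higher. The shares lower and higher were 88% and 12%, 80% and 4%, and 36% and 16% in that order. Over all genes they were 35.7% and 37.6%, 37.3% and 40.2%, and 25.5% and 28.6%. Mx2, a dynamin-like antiviral protein, had 0, 1 and 2 in proliferating against 373, 331 and 316 in freshly isolated libraries. Helz2, a helicase coactivator, had 235, 257 and 269 in proliferating against 6281, 5312 and 5235 in freshly isolated libraries, and Uba7, the enzyme that activates Isg15 for transfer, had 2, 1 and 1 against 113, 101 and 98. The chemokine gene Cxcl10 had 1, 8 and 3 in proliferating against 331, 254 and 323 in freshly isolated libraries. All 4 genes fell without overlap. Zc3hav1, which targets viral RNA for decay, fell in myotubes to 372, 489 and 384, against 2418, 2237 and 2101 in proliferating libraries, and Ifi27 was higher, with 375, 324 and 365 in myotubes against 59, 76 and 60 in proliferating libraries. Chosen after its values were seen, Ifit2 ran against its relatives Ifit1 and Ifit3, with 363, 409 and 363 in proliferating against 179, 216 and 242 in freshly isolated libraries.

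The interferon-inducible GTPases, which attack the vacuoles of intracellular microbes, were low in proliferating cells. All 7 fell in proliferating cells, with a median log2 change of -6.69, and no library overlapped, as was so for 36.3% of all genes tested in this direction. Gbp2, Gbp3 and Gbp7 passed the filter only through freshly isolated cells, so their fall was in part fixed by it and the median is a description only. In myotubes against proliferating cells 5 were higher and 2 not called, and in myotubes against freshly isolated cells all 7 were lower. That is 71.4% higher and 100% lower, beside 28.6% higher and 37.3% lower over all genes. The group holds 4 immunity-related GTPases (IRG) and 3 guanylate-binding proteins (GBP).

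The promoters of these GTPase genes are shown because the genes all fell in proliferating cells and because interferon response motifs are known to sit close to such start sites. In myotubes the genes did not move alike, as described below. Sequences are from RefSeq (GRCm38.p6) and read in the direction of transcription up to the base before the annotated start. They cover chr3:142620413-142620662 (plus strand) for Gbp2, chr3:142559794-142560043 (plus) for Gbp3, chr3:142530086-142530335 (plus) for Gbp7, chr11:58199306-58199555 (plus) for Igtp, chr11:58214727-58214976 (plus) for Irgm2 and chr11:48871421-48871670 (minus) for Irgm1. Capitals mark each match to GAAA, any 2 bases and GAAA again, on either strand, the core of the interferon-stimulated response element (ISRE), and to TTCNNNGAA, the gamma-activated site (GAS), which is its own reverse complement.
Gbp2: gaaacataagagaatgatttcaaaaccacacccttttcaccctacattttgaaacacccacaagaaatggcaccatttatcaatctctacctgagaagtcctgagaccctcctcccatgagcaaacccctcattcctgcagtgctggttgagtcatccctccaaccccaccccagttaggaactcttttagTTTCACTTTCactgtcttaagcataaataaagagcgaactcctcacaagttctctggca
Gbp3: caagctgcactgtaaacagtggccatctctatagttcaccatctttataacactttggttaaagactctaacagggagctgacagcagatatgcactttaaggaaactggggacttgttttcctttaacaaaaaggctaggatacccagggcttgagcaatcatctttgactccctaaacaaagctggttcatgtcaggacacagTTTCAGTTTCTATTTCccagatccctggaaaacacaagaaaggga
Gbp7: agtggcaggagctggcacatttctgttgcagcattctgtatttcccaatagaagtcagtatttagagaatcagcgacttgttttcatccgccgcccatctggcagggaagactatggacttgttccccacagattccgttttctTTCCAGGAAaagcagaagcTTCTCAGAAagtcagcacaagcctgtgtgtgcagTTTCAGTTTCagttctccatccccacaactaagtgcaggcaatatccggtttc
Igtp: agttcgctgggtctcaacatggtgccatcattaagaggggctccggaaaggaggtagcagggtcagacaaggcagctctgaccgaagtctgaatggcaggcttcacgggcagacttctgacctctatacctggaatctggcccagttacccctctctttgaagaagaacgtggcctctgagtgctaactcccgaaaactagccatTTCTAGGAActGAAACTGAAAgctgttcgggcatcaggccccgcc
Irgm2: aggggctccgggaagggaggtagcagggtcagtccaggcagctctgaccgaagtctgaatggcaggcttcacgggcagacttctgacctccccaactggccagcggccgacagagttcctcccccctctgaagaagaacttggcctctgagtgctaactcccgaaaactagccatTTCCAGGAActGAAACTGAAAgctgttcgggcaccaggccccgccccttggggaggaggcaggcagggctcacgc
Irgm1: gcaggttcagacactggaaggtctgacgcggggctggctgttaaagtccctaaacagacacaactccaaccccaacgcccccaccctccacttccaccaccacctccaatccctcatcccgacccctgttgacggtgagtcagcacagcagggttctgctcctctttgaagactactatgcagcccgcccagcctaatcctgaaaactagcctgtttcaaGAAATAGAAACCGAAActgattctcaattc

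All 6 of these promoters hold an ISRE core. Its first base lies 59 bases before the start in Gbp2, 53 in Gbp7, 34 in Igtp and 64 in Irgm2, and overlapping pairs of cores start 45 and 39 bases before it in Gbp3 and 30 and 24 bases before it in Irgm1. In Igtp and Irgm2 a GAS stands 2 bases ahead of the core, and their promoters share an identical run of 55 bases further upstream, while no other pair shown, B2m included, shares more than 13. Gbp7 holds 2 GAS matches upstream of its core. RefSeq promoters (250 bases before to 50 after the start) were matched for 43 of the 50 genes, and 7 were unmatched, namely Dhx58, Usp18, Parp9, Parp14, Iigp1, Tap2 and Nlrc5. An ISRE core was in 21 of the 43 (48.8%), against 3.99% of 27025 genes with a promoter of that length (3.44% of 32851 promoters), and a GAS in 16 of 43 (37.2%), against 9.55% of genes (8.3% of promoters). Among the 33 genes with a matched promoter that were lower in proliferating cells 19 held the core (57.6%), and among the 5 higher ones none did. Of the 3 not called, 1 did. For all genes tested the shares with the core were 4.4% of those lower and 2.91% of those higher. A GAS was in 11 of the 33 lower (33.3%) and in 3 of the 5 higher genes (60%). In myotubes against freshly isolated cells the core was in 17 of 32 lower (53.1%), 3 of 5 uncalled (60%) and none of 4 higher genes. Isg15, Ifit3, Gbp2, Gbp3 and Gbp7 hold the core and passed the filter only through freshly isolated cells, so their lower calls follow in part from it. The 50 genes were chosen for their part in interferon response and antigen presentation, so a high share with the core is partly built into the list. A match is a description of letters in this window and was not tested as a binding site.

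Igtp, of the IRG branch, had 388, 275 and 281 in freshly isolated, 3, 1 and 3 in proliferating and 165, 126 and 128 in myotube libraries. Irgm2 had 473, 409 and 459 in freshly isolated, 2, 1 and 1 in proliferating and 78, 81 and 77 in myotube libraries, and Iigp1 had 176, 142 and 86, then 1, 0 and 0, then 27, 34 and 13. All 3 were nearly undetected in proliferating cells and were higher again in each myotube library, below each freshly isolated library. Myotubes exceeded proliferating cells by log2 changes of 5.46 ± 0.34 for Igtp (limma adjusted p = 1.48e-06), 5.12 ± 0.27 for Irgm2 (adjusted p = 8.68e-07) and 4.25 ± 0.49 for Iigp1 (adjusted p = 4.92e-05). Because the proliferating values are close to 0, the sizes depend on the constant added, and with 8 in place of 1 they were 3.83 for Igtp and 3.22 for Irgm2. Irgm1, a regulatory IRG protein on chromosome 11 at 48861968 to 48871683, had 1588, 1080 and 1060 in freshly isolated, 48, 40 and 67 in proliferating and 126, 135 and 128 in myotube libraries. It kept a measurable level at every stage (log2 change -4.57 ± 0.22 in proliferating against freshly isolated cells and 1.34 ± 0.22 in myotubes against proliferating cells). Igtp and Irgm2 overlap over 162 exon bases.

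The GBP members of chromosome 3 stayed low in myotubes. Gbp2 had 1148, 1074 and 944 in freshly isolated, 0, 1 and 3 in proliferating and 9, 7 and 5 in myotube libraries. Gbp3 had 645, 199 and 263 in freshly isolated, 2, 1 and 2 in proliferating and 7, 3 and 5 in myotube libraries, and Gbp7 had 190, 167 and 141, then 0, 2 and 5, then 9, 3 and 8. No cultured library reached 10 for any of the 3, whereas the lowest freshly isolated value was 141. The log2 change in proliferating against freshly isolated cells was -9.04 ± 0.48 for Gbp2 (limma adjusted p = 8.8e-08), -6.95 ± 0.50 for Gbp3 and -5.98 ± 0.64 for Gbp7, and that of Gbp7 was -5.29 without proliferating library 1. Gbp2 was called higher in myotubes than in proliferating cells (1.97 ± 0.48, adjusted p = 0.00604), and Gbp3 and Gbp7 were not (adjusted p = 0.0779 and 0.08). Gbp5, another gene of this cluster, had 157, 106 and 138 in freshly isolated, 1, 1 and 0 in proliferating and 0, 2 and 0 in myotube libraries.

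A separate GBP cluster on chromosome 5, whose genes are not among the 50, ran the opposite way. All 6 of its genes that were tested were higher in myotubes than in freshly isolated cells, by log2 changes of 3.43 to 8.83, while all 4 of the chromosome 3 genes were lower, by -7.07 to -4.54. Over all genes 40.2% were higher and 37.3% lower. Gbp11, with 20, 14 and 18 in myotubes and at most 5 elsewhere, passed the filter only through myotubes. The 4 chromosome 3 genes passed it only through freshly isolated cells. These 5 calls follow in part from the filter. Gbp4 had 2, 1 and 1 in freshly isolated, 237, 702 and 408 in proliferating and 1157, 1047 and 940 in myotube libraries. Gbp9 had 89, 54 and 57 in freshly isolated, 273, 732 and 500 in proliferating and 2712, 2510 and 2559 in myotube libraries. Both rose stage by stage without overlap. Gbp8 had 632, 546 and 643 in myotubes, 35, 85 and 40 in proliferating and 2, 0 and 0 in freshly isolated libraries, whereas Gbp6 was lowest in proliferating cells, with 33, 93 and 77 in freshly isolated, 3, 17 and 12 in proliferating and 728, 550 and 778 in myotube libraries. Gbp10 had 317, 208 and 291 in myotubes against 8, 28 and 15 in proliferating libraries. In proliferating against freshly isolated cells 5 of the 6 were higher and 1 lower, beside 37.6% and 35.7% of all genes. Guanylate-binding protein genes are close copies of each other, and Gbp6 and Gbp10 overlap other gene models over 29.0% to 46.3% of their exon bases, so how reads were divided among them is uncertain.

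**Figure D4:**
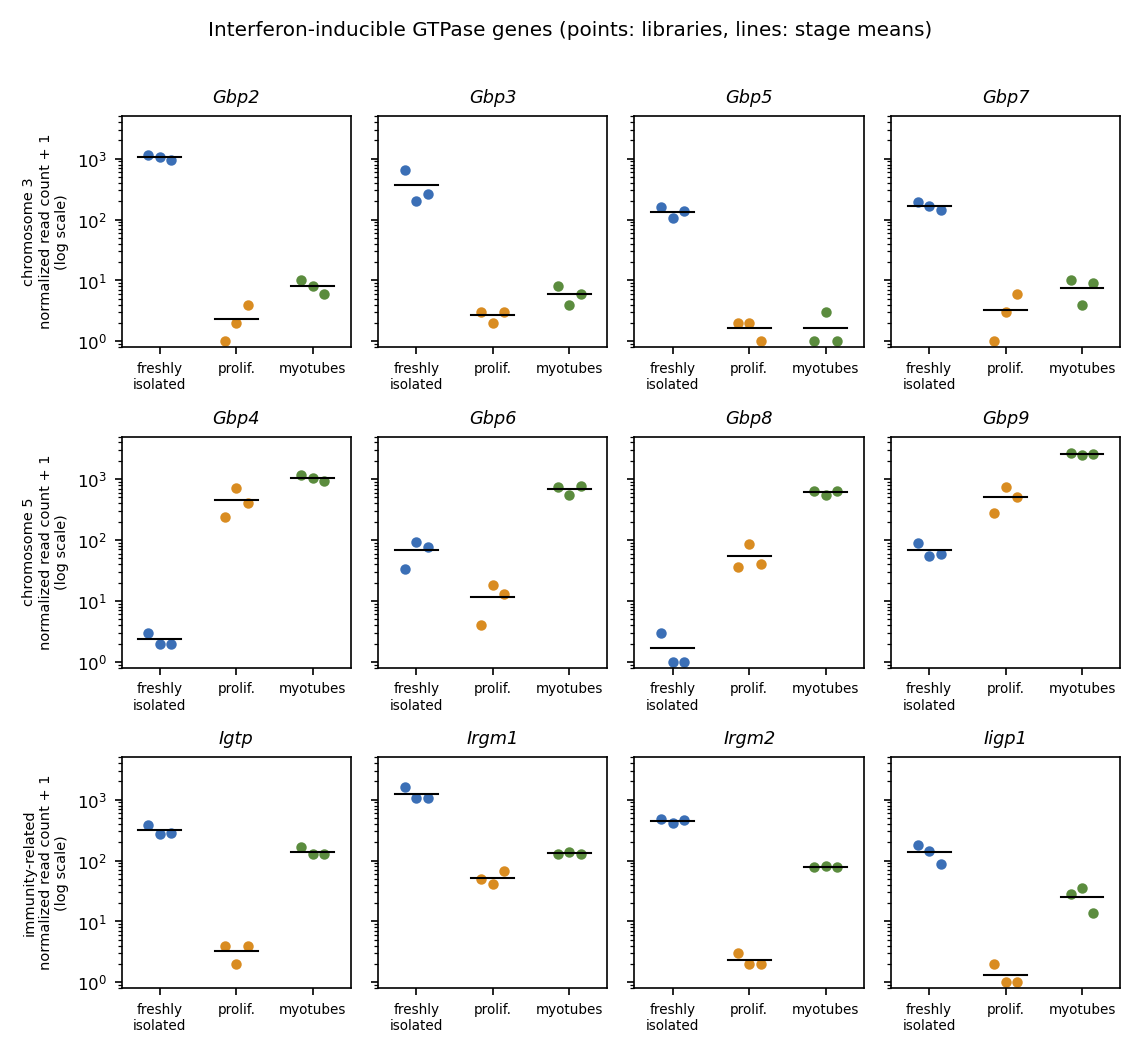
Normalized read counts plus 1 (log scale) of GBP genes of chromosome 3 (top row), GBP genes of chromosome 5 (middle row) and immunity-related GTPases (bottom row) in freshly isolated, proliferating and myotube libraries; points are libraries and lines are stage means. Gbp2 is at 9 or less in cultured and at 944 to 1148 in freshly isolated libraries, Gbp4 is at 940 to 1157 in myotubes and at 2 or less in freshly isolated libraries, and Igtp is lowest in proliferating libraries.

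The classical class I heavy chains H2-K1 and H2-D1 and their light chain B2m had the highest mean levels of the 50 genes per exon length in freshly isolated cells. H2-K1 averaged 2990 normalized read counts per kb of exon, H2-D1 2800 and B2m 2430, and next came Ifitm3 with 1970. In proliferating cells the per-kb level was 141 for H2-K1, 205 for H2-D1 and 762 for B2m, and in myotubes it was 202, 89.6 and 1670. B2m was thus above both heavy chains in both cultured stages. In freshly isolated cells its 3 libraries lay too far apart, at 1216, 2813 and 2240 before division by length, to order it against H2-K1 and H2-D1.

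H2-K1, a classical heavy chain (chromosome 17, 33996017 to 34000347), had 9173, 8560 and 8644 in freshly isolated, 376, 434 and 434 in proliferating and 681, 423 and 675 in myotube libraries. H2-D1, the other classical chain measured (chromosome 17, 35262730 to 35267499), had 7850, 6968 and 6868 in freshly isolated, 533, 549 and 505 in proliferating and 233, 218 and 242 in myotube libraries. Both fell far below every freshly isolated library, by 4.41 ± 0.17 (limma adjusted p = 9.73e-09) and 3.77 ± 0.09 (adjusted p = 6.58e-10) on the log2 scale in proliferating cells. From there H2-D1 fell further in myotubes, by 1.19 ± 0.09 (adjusted p = 4.62e-06). H2-K1 did not follow it, with 2 of 3 myotube libraries above the proliferating ones and a log2 change of 0.48 ± 0.17 (adjusted p = 0.0326). That call was lost without any proliferating library or without myotube library 1 or 3 (adjusted p of 0.0566 to 0.129) and after rescaling to equal totals (0.21, adjusted p = 0.286). Class I heavy chain genes are close copies of each other, so reads may have been divided among them unevenly.

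H2-T23, which encodes the non-classical chain Qa-1 that shows peptides to natural killer cell receptors, had 222, 242 and 256 in freshly isolated, 6, 8 and 13 in proliferating and 31, 32 and 29 in myotube libraries. Its 3 stages did not overlap. B2m (chromosome 2, 122147686 to 122153083) had 1216, 2813 and 2240 in freshly isolated, 615, 692 and 659 in proliferating and 1373, 1485 and 1440 in myotube libraries. B2m fell in proliferating cells (log2 change -1.59 ± 0.24, limma adjusted p = 1.78e-04) and 2.19-fold higher in myotubes than in proliferating cells (1.13 ± 0.24, adjusted p = 0.00285). Freshly isolated library 1 was the low one, and the difference between myotubes and freshly isolated cells was -0.46 ± 0.24 (adjusted p = 0.107) with it and -0.81 (adjusted p = 3.53e-05) without it. The B2m promoter (RefSeq, GRCm38.p6, chr2:122147437-122147686, plus strand) holds an ISRE core, in capitals, that begins 139 bases before the start. It is shown for comparison with the GTPase promoters, whose cores lie closer.
B2m: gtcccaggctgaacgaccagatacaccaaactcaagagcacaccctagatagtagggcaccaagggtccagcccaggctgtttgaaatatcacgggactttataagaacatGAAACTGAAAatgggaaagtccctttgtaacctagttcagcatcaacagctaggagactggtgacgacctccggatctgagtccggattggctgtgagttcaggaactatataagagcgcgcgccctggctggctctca

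Nlrc5, the transactivator of class I genes, had 283, 311 and 196 in freshly isolated, 20, 17 and 16 in proliferating and 9, 12 and 7 in myotube libraries. It was lowest in myotubes, without overlap at any stage, and its log2 change was -3.80 ± 0.32 in proliferating against freshly isolated cells (limma adjusted p = 2.04e-06) and -0.88 ± 0.32 in myotubes against proliferating cells (adjusted p = 0.0394). The second call was lost without any proliferating library or without myotube library 1 or 3 (adjusted p of 0.0633 to 0.127). Nlrc5 and H2-D1 were the 2 genes of the class I group that were called lower in myotubes than in proliferating cells, while H2-K1, H2-T23 and B2m were called higher. The calls of H2-K1 and Nlrc5 were lost under several alternatives, and 1 myotube library of H2-K1 lay within its proliferating range.

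Peptide loading was split between its members. Tapbp, which bridges the transporter and the class I molecule, had 1453, 1518 and 1538 in freshly isolated, 125, 139 and 162 in proliferating and 201, 222 and 194 in myotube libraries. Tap1, a subunit of the peptide transporter, had 776, 534 and 478 in freshly isolated, 62, 94 and 74 in proliferating and 151, 137 and 146 in myotube libraries. Its partner subunit Tap2 had 449, 342 and 339 in freshly isolated, 228, 361 and 309 in proliferating and 362, 308 and 350 in myotube libraries. Tapbp and Tap1 thus fell in culture and were somewhat higher in myotubes than in proliferating cells, while the Tap2 libraries of the 3 stages overlapped. The rise of Tapbp in myotubes was not called after rescaling to equal totals (0.26, adjusted p = 0.172). In proliferating against freshly isolated cells the log2 change was -3.40 ± 0.13 for Tapbp (limma adjusted p = 9.73e-09), -2.93 ± 0.22 for Tap1 (adjusted p = 9.24e-07) and -0.34 ± 0.19 for Tap2 (adjusted p = 0.123). For Tap2 a call of -0.49 appeared without proliferating library 2 (adjusted p = 0.0498). The antisense gene Gm19412 covers 24.9% of the Tapbp exon bases and Gm15821 covers 14.1% of those of Tap2, and whether the counting used strand is not stated. The same limit applies to Adar and Ifi35, with 16.8% of exon bases each under a gene of the opposite strand, and to Psmb8, with 14.7%.

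Immunoproteasome subunits replace constitutive ones in cells exposed to interferon and favour peptides that fit class I molecules. Psmb8 had 74, 60 and 50 in freshly isolated, 7, 17 and 10 in proliferating and 15, 12 and 8 in myotube libraries. Psmb9 had 22, 21 and 11 in freshly isolated, 6, 9 and 8 in proliferating and 6, 3 and 6 in myotube libraries, and Psmb10 had 87, 136 and 141, then 120, 106 and 98, then 243, 193 and 244. Psmb8 and Psmb9 were thus low and lower still in culture, whereas Psmb10 was highest in myotubes (log2 change 1.06 ± 0.22 against proliferating cells, limma adjusted p = 0.00251). Psmb8 changed by -2.40 ± 0.41 in proliferating against freshly isolated cells (adjusted p = 3.76e-04) and Psmb9 by -1.09 ± 0.43 (adjusted p = 0.0426), a call that was lost under most alternatives (adjusted p up to 0.116).

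The constitutive subunits that they replace rose at each step. Psmb5, the counterpart of Psmb8, had 74, 106 and 61 in freshly isolated, 479, 536 and 461 in proliferating and 1307, 1004 and 1468 in myotube libraries. Psmb6, the counterpart of Psmb9, had 824, 1146 and 1016, then 2179, 2463 and 2499, then 6321, 5338 and 7356, and Psmb7, the counterpart of Psmb10, had 586, 473 and 484, then 1293, 1559 and 1416, then 4513, 3515 and 4369, in the same order of stages. The log2 ratio of Psmb8 to Psmb5, taken on values plus 1, was -0.36 ± 0.41 (SD, n = 3) in freshly isolated cells, -5.40 ± 0.50 in proliferating cells and -6.66 ± 0.60 in myotubes. Each stage lay below the one before it without overlap. The ratio of Psmb9 to Psmb6 was -5.76 ± 0.62, -8.12 ± 0.17 and -10.08 ± 0.28, and that of Psmb10 to Psmb7 was -2.10 ± 0.55, -3.71 ± 0.25 and -4.18 ± 0.03. A two-sided exact permutation test gave p = 0.1 for each of the 9 differences between stages, the smallest value that 3 against 3 samples allow, so none can pass 0.05.

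Other genes of the class I pathway included both directions. Of 16 tested, 11 were lower and 4 higher in proliferating than in freshly isolated cells, 10 lower and 3 higher in myotubes than in freshly isolated cells, and 3 lower and 5 higher in myotubes than in proliferating cells. The last counts are 18.8% and 31.2% of those tested, near the 25.5% and 28.6% of all genes. Against freshly isolated cells the shares were 68.8% and 25% in proliferating cells and 62.5% and 18.8% in myotubes. All genes gave 35.7% and 37.6% in the first of these and 37.3% and 40.2% in the second. H2-Q4, a non-classical heavy chain, had 48, 32 and 29 in proliferating against 4789, 3547 and 2922 in freshly isolated libraries. H2-Q6 had 0, 1 and 3 in proliferating and was at 0 in all myotube libraries, against 458, 294 and 272 in freshly isolated libraries, and Tapbpl, a relative of Tapbp that edits peptides, had 47, 43 and 35 in proliferating against 251, 159 and 206 in freshly isolated libraries. All 3 fell without overlap. Erap1, which trims peptides in the endoplasmic reticulum, had 86, 108 and 99 in myotubes, 190, 185 and 162 in proliferating and 813, 826 and 854 in freshly isolated libraries. Of the proteasome activator subunits, Psme2 was higher in myotubes than in proliferating cells (log2 change 1.53 ± 0.15) and Psme3, which interferon does not induce, was lower (-0.85 ± 0.12).

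Class II presentation, a marker of professional antigen-presenting cells, was low throughout. The 9 genes of that list summed to 212 to 261 in freshly isolated, 65 to 71 in proliferating and 72 to 81 in myotube libraries, with 5 genes tested. Of these, 4 were lower and 1 higher in proliferating than in freshly isolated cells, 3 lower and none higher in myotubes than in freshly isolated cells, and 1 lower and 2 higher in myotubes than in proliferating cells. The last counts are 20% and 40% of 5 genes, beside 25.5% and 28.6% of all genes. Against freshly isolated cells the shares were 80% and 20% in proliferating cells and 60% and 0% in myotubes. All genes gave 35.7% and 37.6% in the first of these and 37.3% and 40.2% in the second. Ciita, the class II transactivator and a relative of Nlrc5, had 14, 10 and 6 in proliferating against 192, 92 and 92 in freshly isolated libraries (log2 change -3.50 ± 0.41, limma adjusted p = 2.52e-05). The class II chain H2-Aa had at most 5 in any library. H2-Eb1, another class II chain, was highest in proliferating cells, with 37, 43 and 42. It had 0, 0 and 7 in freshly isolated and 4, 9 and 4 in myotube libraries.

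**Figure D5:**
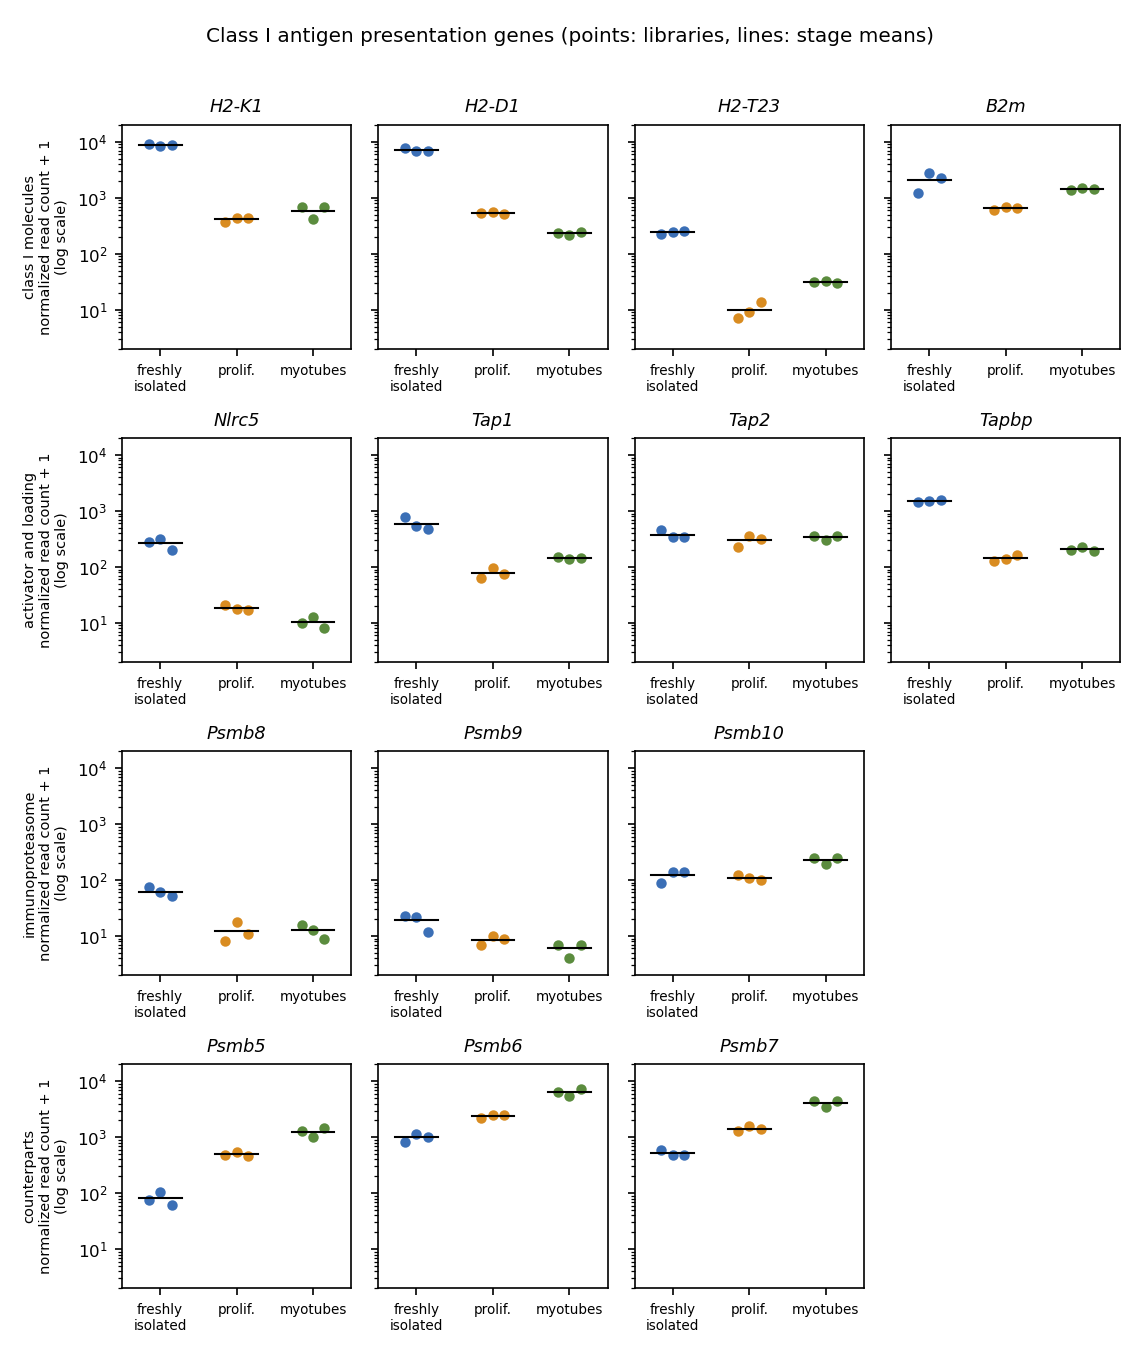
Normalized read counts plus 1 (log scale) of class I chains, Nlrc5, peptide-loading genes, immunoproteasome subunits and their constitutive counterparts in freshly isolated, proliferating and myotube libraries; points are libraries and lines are stage means. H2-K1 and H2-D1 are at 218 to 681 in cultured and at 6868 to 9173 in freshly isolated libraries, Tap2 overlaps between all stages, and Psmb5 rises from left to right.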

How the data were processed

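Per the labels' protocols, ribosomal RNA was removed with RiboGone before SMARTer Stranded library preparation. The submitters' processing notes name STAR 2.4.0a for alignment to mm10 and featureCounts 1.4.5-p1 (Subread) for counting by gene; the sources used here state neither its strand setting nor how libraries were scaled. Values in the deposited table are of unit score: whole numbers obtained by the authors from gene counts after scaling, so no count model was used. Stage prefixes P and D match the labels, and Q was assigned to freshly isolated cells as the stage left over. The p-values measure the spread between 3 samples a stage.

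A gene was fitted if 3 or more libraries reached 10, which 17291 genes did. limma 3.58.1 (R 4.3.3) was run on log2(value + 1) with a mean-variance trend and stage as the only term; p-values were adjusted by Benjamini-Hochberg across those genes and called below 0.05. Read depths were estimated from the spacing of low values. The fit was tested on simulated data. Ratios of proteasome subunits were compared by exact permutation. Positions and exon lengths are from GENCODE vM21 and promoters from RefSeq (GRCm38.p6). Python 3.11.15 with pandas 2.3.3, numpy 2.4.6, scipy 1.17.1 and matplotlib 3.10.9 was used.

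The members and the lists of other genes were chosen with earlier results of these data known. Library values are given for members called in any comparison with a log2 change of at least 1 in size and a stage mean of at least 100, or in role groups of 4 or fewer, and the others by range. From each other list the text names up to 3 called genes a comparison, by size of change, provided the higher stage averaged 100 or more. Ifit2, Ifnb1, Ifng, H2-Aa, H2-Eb1, markers and the remaining guanylate-binding proteins were named after their values were seen. Some genes that the rule would name are not reported here. Alternatives were other constants, filters, scalings and designs, a replicate block, and leaving out libraries.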

Additional observations from a re-analysis of the deposited data

How the results depend on the processing

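No called gene of the 50 changed direction under any alternative run. Rescaling to equal totals without Gm26917 moved the median of all genes by 0.22 for proliferating against freshly isolated cells and by -0.28 for myotubes against proliferating cells, and TMM factors moved it by 0.10 and -0.11. Under equal totals the uncalled changes of Irf3 (0.067), Eif2ak2 (0.173) and Psmb10 (0.082) in proliferating against freshly isolated cells, of Ifngr1 (-0.094), Eif2ak2 (-0.253), Psmb8 (-0.175) and Tap2 (-0.074) in myotubes against proliferating cells and of Ifnar1 (-0.007) in myotubes against freshly isolated cells turned round. TMM factors did so for Eif2ak2 (0.051 and -0.086 in the first and second comparisons) and Psmb8 (-0.022 in the second), and leaving out freshly isolated and proliferating library 1 together for Eif2ak2 (-0.062) and Psmb8 (-0.191) in the second.

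With 1 library left out, the genes called higher in proliferating against freshly isolated cells numbered 3 to 5 and those lower 29 to 37; leaving out a freshly isolated library drops the 7 genes that passed the filter only there. In myotubes against proliferating cells the ranges were 19 to 22 higher and 6 to 9 lower, and in myotubes against freshly isolated cells 4 to 6 and 29 to 37. Oasl2 in myotubes against freshly isolated cells moved to -4.39 without myotube library 1. Calls were lost under at least 1 alternative for 4 genes in the first comparison (Adar, Bst2, Ifngr2 and Psmb9), 9 in the second (Bst2, H2-K1, Ifit1, Ifnar1, Ifnar2, Nlrc5, Parp14, Stat2 and Tapbp) and 1 in the third (Ifi35). Uncalled changes that turned round with 1 library left out were those of Eif2ak2 (range -0.195 to 0.147, -0.062 to 0.121 and -0.169 to 0.172 in the 3 comparisons) and, in myotubes against proliferating cells, of Oasl2 (-0.594 to 0.636), Rsad2 (-0.544 to 0.218) and Psmb8 (-0.191 to 0.394).

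Deviations from the stage means correlated at -0.034 to 0.027 between samples with the same number. Between samples with different numbers the range was -0.058 to 0.059. With 3 libraries behind each mean, these values cannot decide whether a number marks a shared animal, batch or day. A fit with the replicate block called 36 lower and 4 higher, 8 lower and 22 higher, and 36 lower and 4 higher in the 3 comparisons. Under it Adar (adjusted p = 0.057) and Psmb9 (0.073) in the first, Stat2 (0.0599) in the second and Ifi35 (0.0504) in the third were not called, and Gbp3 in the second was (0.0451).

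The main limits are 3 samples a stage, values of a few reads in culture for Isg15, Irf8, Gbp2, Gbp3 and Gbp7 and in proliferating cells for Igtp, Irgm2 and Iigp1, and the unknown strand setting.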
